A study of Mus musculus with 10 samples.

Results

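A set of 10 genes that mark macrophages of the mouse embryo was followed in the first pharyngeal arch (PA1): Csf1r, Ptprc, Tyrobp, Fcer1g, C1qa, C1qb, C1qc, Mrc1, Cx3cr1 and Aif1. They were set by a rule that uses gene names only, though earlier results on these data were known when they were chosen. All 10 were found by symbol among the 22114 protein-coding genes counted, and all 10 passed the filter of at least 10 reads in at least 1 arch, which left 14561 genes to test. PA1 was dissected from male C57BL/6 embryos at embryonic day (E)10.5, 5 of them wild-type and 5 Grhl2-/-, homozygous for a null allele of the epithelial transcription factor Grhl2. Each arch gave 1 stranded total RNA library, and the whole arch was sequenced with its epithelium, mesenchyme, nerves, vessels and blood. The null allele is constitutive, so every cell of the embryo lacked Grhl2. Arches are named here by genotype and label, such as Grhl2-/- 2-568. Values given arch by arch are in the order 1-566, 1-568, 3-588, 5-566 and 8-568 for wild-type and 1-588, 1-628, 2-566, 2-568 and 3-604 for Grhl2-/-.

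In the early mouse embryo, the first macrophages come from the yolk sac and enter the tissues through the young circulation, and those of the brain persist as microglia. CSF1R, their growth factor receptor, keeps them alive and is switched on by the transcription factor PU.1. They clear dying cells and debris, using scavenger receptors such as MRC1 and opsonins such as C1q. In a library of whole tissue, fewer macrophages and less of a transcript per macrophage cannot be told apart.

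Total counts per arch ran from 22188454 to 28801378, so that 3 reads corresponded to 0.104 to 0.136 CPM, the counts scaled to a common library size. Grhl2 itself averaged 35.6 CPM in the wild-type and 4.53 CPM in the mutant arches (log2 fold change -3.02 ± 0.17 SE). Grhl2-/- 2-568 stood apart for the macrophage genes, being the highest of the 10 arches for 10 of the 10, whereas it was the highest for 10.7% of all genes tested. Its total count lay inside the range of the other arches. The fold changes of the macrophage genes are given with and without this arch.

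For none of the 10 macrophage genes was a difference between the genotypes detected beyond the spread of the embryos. In limma-voom, a two-sided test with Benjamini-Hochberg adjustment over all genes tested (false discovery rate, FDR), 0 of 10 were called at FDR below 0.01 and 0 of 10 had an unadjusted p below 0.05. Of all genes tested, 1.96% were called, 1.09% lower and 0.879% higher in Grhl2-/-, and 28.5% had an unadjusted p below 0.05. By edgeR and by DESeq2, 0 of 10 were called and 1 of 10, Mrc1, had an unadjusted p below 0.05. In 0 of 10 did the genotypes separate without overlap, against 8.88% of all genes tested. The fold changes were positive for 8 of 10, against 52.7% of all genes tested, and their median was 0.15 on the log2 scale, against 0.01 for all genes tested. Without Grhl2-/- 2-568 they were positive for 4 of 10, against 52.6% of the 14510 genes then tested, and their median was -0.08.

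**Figure D1:**
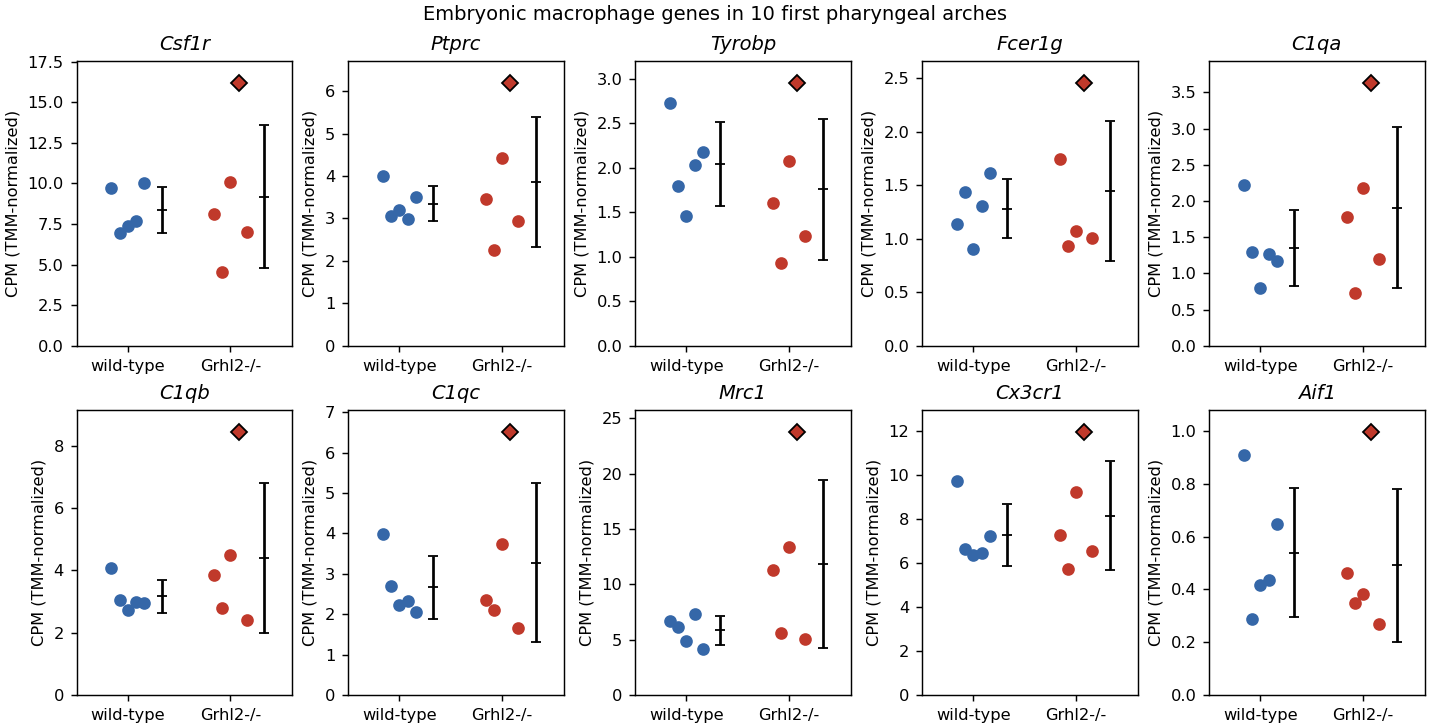
TMM-normalized CPM of each macrophage gene in the 5 wild-type (blue) and 5 Grhl2-/- (red) arches, with the mean and SD beside the points. The outlined diamond is Grhl2-/- 2-568, the highest arch in all 10 panels.

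The levels of the genes were compared per length, as CPM per kilobase of exons in the GENCODE M21 annotation of GRCm38. In wild-type arches Tyrobp was the highest at 3.06 ± 0.70 CPM per kilobase (SD, n = 5), followed by C1qb at 2.90 ± 0.49, and these neighbours did not differ beyond their spread. Cx3cr1 (1.62 ± 0.31), Fcer1g (1.47 ± 0.31), Csf1r (1.45 ± 0.25), C1qc (1.38 ± 0.40) and C1qa (1.30 ± 0.51) formed a middle group in which neighbours in the order differed by less than their SD. Mrc1 followed at 0.917 ± 0.203, Aif1 at 0.352 ± 0.159 and Ptprc at 0.183 ± 0.023 CPM per kilobase. In Grhl2-/- arches the mean of Mrc1 was 1.86 ± 1.19 CPM per kilobase and, without Grhl2-/- 2-568, 1.39 ± 0.65 CPM per kilobase. The means of Mrc1, C1qa (1.83) and Cx3cr1 (1.81) in the 5 Grhl2-/- arches did not differ beyond their spread, and Aif1 and Ptprc were again the lowest. The spliced exons of Ptprc sum to 18313 bases in the annotation, which includes every annotated transcript, so its level per kilobase is low by this measure.

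Windows of 250 bases before to 50 after the transcription start, from RefSeq on GRCm38.p6, were matched for 7 of the 10 genes: Ptprc, Fcer1g, Mrc1, C1qb, C1qc, Cx3cr1 and Aif1. Csf1r, Tyrobp and C1qa were not matched. The letters GAGGAA, the core of the PU.1 site, searched on both strands, were found in the windows of 5 of the 7 genes (Ptprc, Mrc1, C1qb, C1qc and Aif1) and in 28.3% of all 32851 promoter windows. Ptprc has 2 windows, so that 5 of 8 windows held the letters. Of 3 other motifs searched on both strands, GGAANNGAA (the ETS-IRF composite element) is held by 8.24% of all windows, TGANTCA (AP-1) by 7.81% and AACCNGTT (the grainyhead site) by 2.09%. None of these 3 was found in the windows of the 7 genes. The windows of Mrc1, C1qb and C1qc are shown because these genes had the largest positive fold changes among those with a window, and GAGGAA, or its reverse complement TTCCTC, is in capitals.
Mrc1, chr2:14229164-14229463, plus strand: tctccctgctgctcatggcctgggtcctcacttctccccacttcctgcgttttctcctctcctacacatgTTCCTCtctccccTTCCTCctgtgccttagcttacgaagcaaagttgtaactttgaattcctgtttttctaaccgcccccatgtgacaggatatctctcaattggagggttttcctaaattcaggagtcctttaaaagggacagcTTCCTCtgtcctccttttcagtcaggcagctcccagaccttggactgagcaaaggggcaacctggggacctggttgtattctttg
C1qb, chr4:136886151-136886450, minus strand: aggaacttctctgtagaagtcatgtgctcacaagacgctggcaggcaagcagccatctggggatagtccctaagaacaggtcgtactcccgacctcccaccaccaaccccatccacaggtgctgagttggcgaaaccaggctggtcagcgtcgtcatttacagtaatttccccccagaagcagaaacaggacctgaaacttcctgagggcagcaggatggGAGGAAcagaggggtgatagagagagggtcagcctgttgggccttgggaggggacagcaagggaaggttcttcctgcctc
C1qc, chr4:136892865-136893164, minus strand: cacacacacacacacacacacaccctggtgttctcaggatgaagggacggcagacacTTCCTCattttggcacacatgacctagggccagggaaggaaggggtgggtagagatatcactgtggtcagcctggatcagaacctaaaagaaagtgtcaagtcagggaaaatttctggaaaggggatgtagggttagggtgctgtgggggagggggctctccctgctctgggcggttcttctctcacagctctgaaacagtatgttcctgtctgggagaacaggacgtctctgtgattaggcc
The Mrc1 window holds the letters at 3 positions, beginning 180, 167 and 35 bases before the start, those of C1qb at 30 and C1qc at 193 bases before it. These matches describe the sequence only, and no binding was measured here.

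Csf1r (chr18:61100598-61132149, plus strand) encodes the receptor for CSF1 and IL34 on which macrophages depend. In wild-type arches it stood at 9.72, 6.97, 7.35, 7.71 and 10.1 CPM, from 194 to 249 reads. In Grhl2-/- arches it stood at 8.10, 4.53, 10.1, 16.2 and 6.99 CPM. The Grhl2-/- values therefore lay on both sides of the wild-type range, with Grhl2-/- 1-628 below it and Grhl2-/- 2-568 far above it. The log2 fold change was 0.06 ± 0.27 SE with a 95% confidence interval from -0.55 to 0.66 (limma-voom FDR 0.916), and without Grhl2-/- 2-568 it was -0.18. Annotated exons of Hmgxb3 on the opposite strand cover 15.1% of the exon bases of Csf1r.

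The growth factor side of this receptor was measured in a list of 16 CSF1R ligands and signalling genes, Csf1r included. Of the 13 tested, 0 were called lower and 1 higher, and their median log2 fold change was 0.10. The gene called was Csf2ra, the alpha chain of the GM-CSF receptor, which averaged 4.73 ± 0.37 CPM in the wild-type and 6.89 ± 0.70 CPM in the Grhl2-/- arches (log2 fold change 0.54 ± 0.10 SE, limma-voom FDR 0.00941). Csf1, the ligand of CSF1R, averaged 5.88 ± 0.70 CPM in the wild-type and 7.76 ± 1.08 CPM in the Grhl2-/- arches (log2 fold change 0.40 ± 0.12 SE, limma-voom FDR 0.0652), with its values overlapping between the genotypes. Il34, the other ligand, was barely detected, with at most 1 read in any arch. The 3 most abundant genes of the list downstream of the receptor were Cbl, a ubiquitin ligase, Grb2, an adaptor, and Inpp5d, a lipid phosphatase, with log2 fold changes of 0.15, 0.02 and 0.17 and limma-voom FDR values of 0.322, 0.865 and 0.222.

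Ptprc (chr1:138062861-138175708, minus strand) encodes CD45, the tyrosine phosphatase carried by all white blood cells. Wild-type arches held 3.997, 3.06, 3.21, 2.98 and 3.51 CPM. The Grhl2-/- arches held 3.46, 2.25, 4.43, 6.19 and 2.93 CPM, again on both sides of the wild-type values. The log2 fold change was 0.15 ± 0.24 SE with a 95% confidence interval from -0.37 to 0.66 (limma-voom FDR 0.717), and -0.05 without Grhl2-/- 2-568. Across the 10 arches Ptprc and Csf1r had the closest pattern of the 45 pairs of macrophage genes, with Pearson r = 0.968 on log2 CPM, and r = 0.937 over the 9 arches without Grhl2-/- 2-568.

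Tyrobp (chr7:30413760-30417585, plus strand) and Fcer1g (chr1:171229572-171234365, minus strand) encode the short adaptors DAP12 and the Fc receptor gamma chain, whose ITAM motifs pass signals from activating receptors to the kinase SYK. Tyrobp stood at 2.73, 1.798, 1.46, 2.04 and 2.18 CPM in wild-type arches and at 1.61, 0.930, 2.08, 2.95 and 1.24 CPM in Grhl2-/- arches. Fcer1g stood at 1.14, 1.44, 0.906, 1.31 and 1.62 CPM in wild-type arches and at 1.75, 0.930, 1.07, 2.46 and 1.004 CPM in Grhl2-/- arches. For both adaptors the genotypes overlapped. The log2 fold change of Tyrobp was -0.26 ± 0.28 SE (95% confidence interval -0.88 to 0.36, limma-voom FDR 0.583), the most negative of the 10 genes, and it was -0.47 without Grhl2-/- 2-568. For Fcer1g it was 0.11 ± 0.28 SE (95% confidence interval -0.52 to 0.73, limma-voom FDR 0.840) and -0.11 without that arch. Counts were modest, from 24 to 83 reads for Tyrobp and 24 to 69 for Fcer1g.

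Of 25 ITAM adaptor partners and kinases, these adaptors included, 15 were tested and 0 were called in either direction, with a median log2 fold change of -0.02. Syk averaged 9.41 ± 0.56 CPM in the wild-type and 9.18 ± 2.21 CPM in the Grhl2-/- arches (limma-voom FDR 0.834). Trem2, a lipid receptor that signals through DAP12, had 3 to 23 reads per arch and a log2 fold change of -0.50 ± 0.48 SE (limma-voom FDR 0.521). The Fc receptor genes Fcgr1 and Fcgr3, whose products signal through the gamma chain, had log2 fold changes of -0.09 and 0.18 and limma-voom FDR values of 0.872 and 0.784. The 3 most abundant genes of the list, Src, Plcg2 and Lyn, lay between -0.02 and 0.04 on the log2 scale (limma-voom FDR values of 0.993, 0.961 and 0.796).

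C1qa, C1qb and C1qc encode the A, B and C chains of C1q, the recognition subunit of the classical complement pathway, which tissue macrophages secrete. They lie side by side on the minus strand of chromosome 4, from the end of C1qb at 136880129 to the start of C1qa at 136898803, a span of 18675 bases. C1qa (chr4:136895917-136898803) stood at 2.23, 1.29, 0.802, 1.27 and 1.17 CPM in wild-type arches and at 1.78, 0.736, 2.18, 3.63 and 1.20 CPM in Grhl2-/- arches. C1qb (chr4:136880129-136886187) stood at 4.09, 3.06, 2.72, 2.98 and 2.95 CPM in wild-type arches and at 3.85, 2.79, 4.50, 8.43 and 2.39 CPM in Grhl2-/- arches. The highest Grhl2-/- value of C1qb was 2.06 times the highest wild-type value, yet Grhl2-/- 3-604 fell under all 5 wild-type arches. C1qc (chr4:136889804-136893065) stood at 3.997, 2.70, 2.23, 2.33 and 2.06 CPM in wild-type arches and at 2.35, 2.09, 3.74, 6.51 and 1.66 CPM in Grhl2-/- arches.

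The log2 fold changes of the C1q chains were all positive and not called. For C1qa it was 0.42 ± 0.40 SE (95% confidence interval -0.46 to 1.30, limma-voom FDR 0.518). For C1qb it was 0.37 ± 0.30 SE (95% confidence interval -0.29 to 1.03, limma-voom FDR 0.435). For C1qc it was 0.19 ± 0.34 SE (95% confidence interval -0.55 to 0.93, limma-voom FDR 0.743). Without Grhl2-/- 2-568 they were 0.14, 0.10 and -0.10. The summed CPM of the 3 chains was 18.6 in Grhl2-/- 2-568, against 5.75 to 10.3 in wild-type and 5.25 to 10.4 in the other Grhl2-/- arches.

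Of 27 complement genes, the C1q chains included, 16 were tested, 0 were called lower and 1 was called higher, with a median log2 fold change of 0.21. The gene called was Masp1, a serine protease of the lectin pathway, which averaged 2.73 ± 0.86 CPM in the wild-type and 6.44 ± 0.59 CPM in the Grhl2-/- arches (log2 fold change 1.26 ± 0.17 SE, limma-voom FDR 0.00169). Its 5 Grhl2-/- values all lay above its 5 wild-type values. The proteases that act with C1q were low, C1s1 at 26 to 65 reads per arch (log2 fold change 0.46 ± 0.21 SE, limma-voom FDR 0.174) and C1ra at no more than 6 reads. C3, the central opsonin of the cascade, had at most 6 reads in any arch. The 3 most abundant genes of the list were Calr and C1qbp, whose proteins can bind C1q, and Serping1, the C1 inhibitor, with log2 fold changes of -0.08, -0.17 and 0.56 (limma-voom FDR values of 0.407, 0.204 and 0.0339).

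Mrc1 (chr2:14229392-14332057, plus strand), which encodes the mannose receptor CD206 of tissue macrophages and of some endothelia, had the largest difference of the 10 genes. It was at 6.72, 6.11, 4.91, 7.31 and 4.16 CPM in wild-type arches, from 103 to 201 reads. In Grhl2-/- it was at 11.3 CPM in 1-588, 5.58 CPM in 1-628, 13.4 CPM in 2-566, 23.8 CPM in 2-568 and 5.10 CPM in 3-604. Thus 3 of 5 Grhl2-/- arches lay above all wild-type arches and the other 2 lay within the wild-type range. The log2 fold change was 0.84 ± 0.41 SE with a 95% confidence interval from -0.07 to 1.74, a fold of 1.79 (limma-voom FDR 0.205). Without Grhl2-/- 2-568 it was 0.52 (limma-voom FDR 0.320). By edgeR it was 1.02 (FDR 0.105) and by DESeq2 1.02 (FDR 0.0964). Over all alternatives tried, the FDR of Mrc1 ran from 0.0209 to 0.320.

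Mrc1 was also higher relative to the other macrophage genes in most Grhl2-/- arches. The ratio of Mrc1 to Csf1r CPM was 0.692, 0.876, 0.668, 0.948 and 0.414 in wild-type. In Grhl2-/- it was 1.40, 1.23, 1.32, 1.47 and 0.729, so that 4 of 5 Grhl2-/- arches lay above all wild-type arches and Grhl2-/- 3-604 lay among them. Relative to Cx3cr1, 3 of 5 Grhl2-/- arches lay above all wild-type arches. Mrc1 made up 11.7% to 21.0% of the summed CPM of the 10 genes in wild-type and 17.4% to 28.6% in Grhl2-/- arches. These ratios were chosen after the values of Mrc1 were seen and are given without a test.

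**Figure D2:**
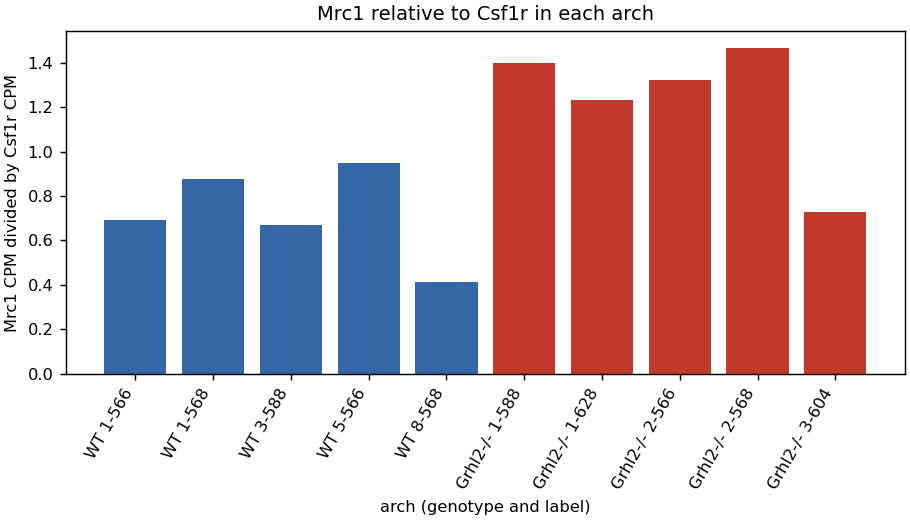
Mrc1 CPM divided by Csf1r CPM in each arch (bars, 1 arch each, wild-type in blue and Grhl2-/- in red). 4 of the 5 Grhl2-/- arches stand above the highest wild-type arch at 0.948, and Grhl2-/- 3-604 stands at 0.729.

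Genes of endothelium, where Mrc1 can also be expressed, had mostly positive fold changes. Of 20 endothelial genes tested, 0 were called, 18 had positive fold changes and the median log2 fold change was 0.23. Their summed level was 545 to 637 CPM in wild-type arches and 611 to 758 CPM in Grhl2-/- arches. In Grhl2-/- 1-588, 1-628, 2-566, 2-568 and 3-604 it was 737, 758, 611, 750 and 671 CPM. It was thus high in 2-568, where Mrc1 was highest, but also in 1-628, where Mrc1 was at 5.58 CPM, and it was lowest in 2-566, where Mrc1 was at 13.4 CPM. Kdr, a VEGF receptor, had a log2 fold change of 0.34 ± 0.08 SE (limma-voom FDR 0.0305), Flt1 of 0.67 ± 0.21 SE (limma-voom FDR 0.0682) and Cdh5 of 0.11 ± 0.04 SE (limma-voom FDR 0.113). Stab1, a scavenger receptor gene of both macrophages and sinusoidal endothelium, averaged 59.0 ± 3.95 CPM in the wild-type and 80.1 ± 10.6 CPM in the Grhl2-/- arches (limma-voom FDR 0.0138). The part of endothelial RNA in the level of Mrc1 was not tested. Lyve1, which marks some of the same macrophages and lymphatic endothelium, had at most 20 reads in any arch, and Cd163 and Folr2, other genes of MRC1-positive macrophages, had 0 and at most 5.

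Cx3cr1 (chr9:119901616-120069879, minus strand) encodes the fractalkine receptor, carried by yolk sac-derived macrophages and microglia. It stood at 9.72, 6.65, 6.34, 6.47 and 7.23 CPM in wild-type arches and at 7.28, 5.73, 9.24, 11.96 and 6.56 CPM in Grhl2-/- arches. The narrowest confidence interval of the 10 genes belonged to Cx3cr1, from -0.26 to 0.58 around a log2 fold change of 0.16 ± 0.19 SE (limma-voom FDR 0.622). Without Grhl2-/- 2-568 the fold change was 0.01. Its ligand gene Cx3cl1 averaged 2.30 ± 0.76 CPM in the wild-type and 6.77 ± 4.30 CPM in the Grhl2-/- arches, without overlap (log2 fold change 1.43 ± 0.43 SE), and was not called (limma-voom FDR 0.0639).

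Aif1 (chr17:35170991-35176068, minus strand) encodes IBA1, an actin-binding protein widely used to stain macrophages and microglia. It had the fewest reads of the 10 genes, from 7 to 28 per arch. Wild-type arches held 0.908, 0.288, 0.418, 0.436 and 0.646 CPM, and Grhl2-/- arches 0.464, 0.349, 0.381, 0.996 and 0.270 CPM. The log2 fold change of -0.13 ± 0.38 SE had a 95% confidence interval from -0.97 to 0.71 (limma-voom FDR 0.856), and without Grhl2-/- 2-568 it was -0.42.

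**Figure D3:**
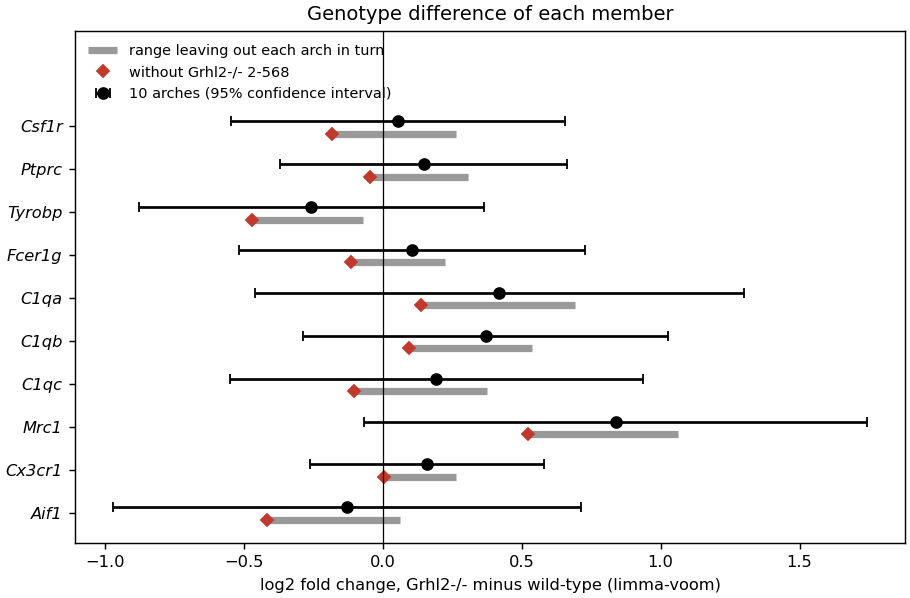
Log2 fold change of each macrophage gene, Grhl2-/- minus wild-type, by limma-voom (black points with 95% confidence intervals), with the range obtained by leaving out each arch in turn (grey bars) and the value without Grhl2-/- 2-568 (red diamonds). All 10 intervals include 0, and for all 10 genes the lowest value was that without Grhl2-/- 2-568.

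The macrophage genes were more spread among the Grhl2-/- arches than among the wild-type arches. The SD of log2 CPM was larger in Grhl2-/- than in wild-type for 10 of 10 macrophage genes, against 58.6% of all genes tested. The median ratio of the SDs was 1.998, against 1.12 for all genes tested, and ranged from 1.12 for Aif1 to 3.23 for Ptprc. Without Grhl2-/- 2-568 the SD was larger in Grhl2-/- for 9 of 10, and the median ratio was 1.39, against 1.14 for all genes tested. No test of this spread was made.

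The summed CPM of the 10 genes was 30.4 to 45.2 in wild-type, with wild-type 1-566 the highest. In Grhl2-/- it was 25.9 in 1-628, 29.3 in 3-604, 41.9 in 1-588, 51.1 in 2-566 and 83.1 in 2-568. Both the lowest and the highest sums were thus in Grhl2-/- arches, and Grhl2-/- 2-568 had 2.39 times the wild-type median. Grhl2-/- 1-628 and 3-604 held the lowest pair of Grhl2-/- values for 10 of 10 genes, and they are the 2 Grhl2-/- arches whose second label number no wild-type arch shares. What that number stands for is not given in the labels.

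**Figure D4:**
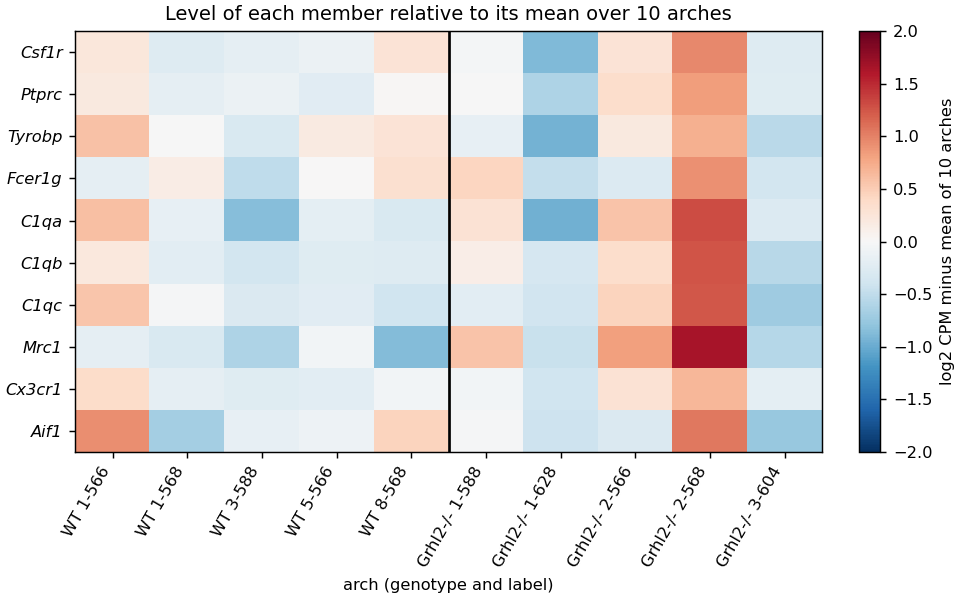
Log2 CPM of each macrophage gene minus its mean over the 10 arches, with 1 column for each arch and the genotypes divided by a black line. The column of Grhl2-/- 2-568 is the highest in all 10 rows, whereas Grhl2-/- 1-628 and 3-604 are below the mean in all of them.

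The 10 genes varied together from arch to arch. Over the 45 pairs the median Pearson r of log2 CPM across 10 arches was 0.773, from 0.426 for Mrc1 with Aif1 to 0.968. Without Grhl2-/- 2-568 the median was 0.600, and the lowest pair, Mrc1 with Aif1, was at -0.03. Against the mean of the other 9 genes, Ptprc (r = 0.953), Cx3cr1 (r = 0.951) and C1qb (r = 0.943) were the closest and Fcer1g the least close (r = 0.689). Over the 9 arches without Grhl2-/- 2-568 these values were 0.892, 0.909, 0.872 and 0.322, and C1qa was then at 0.901. All arches share 1 normalization, and these correlations are given as descriptions across 10 libraries.

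The genes outside the list with the most similar pattern were ranked by r with the mean z-score of the 10 macrophage genes, among 13006 genes with a mean of at least 20 reads. The first 12 were Lgals1 (r = 0.967), C3ar1 (r = 0.936), Hpgds (r = 0.927), Fcgr3 (r = 0.926), Laptm5 (r = 0.924), Ctsb (r = 0.924), Col6a2 (r = 0.923), Slc9a3r2 (r = 0.918), Adgre1 (r = 0.910), Nckap1l (r = 0.907), F13a1 (r = 0.891) and Sash3 (r = 0.890). C3ar1 encodes the receptor for the complement fragment C3a, Fcgr3 a low-affinity Fc receptor, Adgre1 the macrophage antigen F4/80 and Laptm5 a lysosomal protein of blood cells. Lgals1, a galectin made by many cell types, and Col6a2, a collagen chain of mesenchyme, are no macrophage markers. None of the 12 was called between the genotypes. Over the 9 arches without Grhl2-/- 2-568, r was 0.926 for Lgals1, 0.894 for Adgre1 and 0.699 for F13a1, the lowest of the 12. Adgre1 stood at 2.82, 1.94, 1.64, 1.82 and 2.22 CPM in wild-type arches and at 1.89, 0.930, 2.94, 4.66 and 0.734 CPM in Grhl2-/- arches, highest in Grhl2-/- 2-568 and lowest in Grhl2-/- 3-604 and 1-628.

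Wider lists of macrophage genes did not all have the direction of the 10 genes. Of 36 other macrophage surface and effector genes, 27 were tested, 0 were called, 10 had positive fold changes, and the median log2 fold change was -0.14. Grhl2-/- 2-568 was the highest arch for 16 of those 27. The most abundant were Ctsb, Stab1 and Emilin2, and Ctsb, a lysosomal protease of many cells, had a log2 fold change of 0.04 (limma-voom FDR 0.792) and Emilin2 of -0.30 (limma-voom FDR 0.375). Marco and Clec7a had 0 reads, and Timd4, a receptor for dying cells, at most 5. Cd68, a lysosomal glycoprotein of macrophages, averaged 2.66 ± 0.37 CPM in the wild-type and 2.82 ± 0.40 CPM in the Grhl2-/- arches.

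Of 16 transcription factor genes of macrophages, all tested, 13 had positive fold changes, and the median log2 fold change was 0.27. Their summed level was 355 to 416 CPM in wild-type arches and 452 to 499 CPM in Grhl2-/- arches, without overlap. The most abundant, Id3 and Zeb2, which many cell types express, averaged 195 and 81.0 CPM in the wild-type and 235 and 117 CPM in the Grhl2-/- arches. Spi1, which encodes PU.1, averaged 1.26 ± 0.34 CPM in the wild-type and 1.27 ± 0.33 CPM in the Grhl2-/- arches (log2 fold change 0.03 ± 0.23 SE, limma-voom FDR 0.943), and Irf8, its partner in macrophage development, had a log2 fold change of 0.27 ± 0.13 SE (limma-voom FDR 0.202). The 3 most abundant of 16 tested were Id3, Zeb2 and Nfe2l2, with log2 fold changes of 0.27, 0.59 and -0.10 (limma-voom FDR values of 0.0444, 0.124 and 0.343).

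Of 14 genes of microglia and the CX3CR1 lineage, 13 were tested, 0 were called lower and 1 higher. The gene called was Sparc, a matrix protein made by much of the mesenchyme, which averaged 124 ± 3 CPM in the wild-type and 184 ± 12 CPM in the Grhl2-/- arches (log2 fold change 0.57 ± 0.05 SE, limma-voom FDR 3.13e-05). The summed level of the list was 236 to 273 CPM in wild-type and 282 to 328 CPM in Grhl2-/- arches, without overlap. Without Sparc the sums overlapped, at 112 to 147 CPM in wild-type and 112 to 131 CPM in Grhl2-/- arches. Tmem119 and Olfml3, the other most abundant genes of the list, are also expressed in mesenchyme, and had log2 fold changes of -0.32 and -0.22 (limma-voom FDR values of 0.0913 and 0.396). P2ry12, a purinergic receptor that is more specific to microglia, had 10 to 34 reads per arch and a log2 fold change of 0.22 ± 0.34 SE (limma-voom FDR 0.699). Of 21 efferocytosis genes, which act in the uptake of dying cells, 19 were tested and 0 were called. The 3 most abundant, Lrp1, Dock1 and Rac1, had log2 fold changes of 0.43, 0.06 and -0.03 (limma-voom FDR values of 0.0420, 0.372 and 0.538).

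Of 20 chemokine and recruitment genes, 14 were tested, 0 were called lower and 1 higher. Cxcl12, a chemokine of mesenchyme, averaged 151 ± 9 CPM in the wild-type and 190 ± 9 CPM in the Grhl2-/- arches (log2 fold change 0.33 ± 0.05 SE, limma-voom FDR 0.00260). Its receptors Cxcr4 and Ackr3 had log2 fold changes of 0.82 ± 0.25 SE and 0.29 ± 0.14 SE (limma-voom FDR values of 0.0643 and 0.188). Ccl2, which draws monocytes, had at most 5 reads in any arch. Of 20 apoptosis genes, 19 were tested, 0 were called lower and 1, Cdkn1a, a cell cycle inhibitor, higher (log2 fold change 0.70 ± 0.13 SE, limma-voom FDR 0.00872), while Trp53 and Apaf1, the most abundant, had log2 fold changes of -0.05 and 0.06 (limma-voom FDR values of 0.595 and 0.415).

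Markers of other blood cells were examined because Ptprc, Tyrobp and Fcer1g are not specific to macrophages. Of 31 pan-leukocyte genes, Ptprc included, 27 were tested and 0 were called, and Grhl2-/- 2-568 was the highest arch for 18 of 27. Their summed level was 153 to 173 CPM in wild-type arches and 169 to 217 CPM in Grhl2-/- arches. The most abundant, Itga4, Lcp1 and Coro1a, had log2 fold changes of 0.36, 0.20 and 0.03 (limma-voom FDR values of 0.0676, 0.0464 and 0.883). Of 21 genes of monocytes, neutrophils and mast cells, 6 were tested and 0 were called. Ctsg, Camp and Ngp had 0 reads, and S100a8 at most 8, while Kit and Gata2, which carried most of the sum, have other sources and had log2 fold changes of 0.13 and 0.16, and Prtn3 one of 0.15 (limma-voom FDR values of 0.285, 0.564 and 0.521). Mpo, the myeloperoxidase gene of granulocyte and monocyte precursors, named after its values were seen, stood at 2.68, 1.26, 2.06, 1.49 and 1.74 CPM in wild-type arches and at 0.785, 0.814, 1.14, 0.890 and 0.656 CPM in Grhl2-/- arches. Its values were lower in Grhl2-/- without overlap (log2 fold change -1.04 ± 0.24 SE), and it was not called (limma-voom FDR 0.0269). Of 12 lymphoid genes, 2 were tested, Cd79b and Rag1, and 0 were called (limma-voom FDR values of 0.782 and 0.867). Cd3e, Cd3g and Ms4a1, defining genes of T and B cells, had 0 reads in all 10 arches.

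Of 13 megakaryocyte and platelet genes, 11 were tested, 0 were called lower and 1 higher. Vwf, also an endothelial gene, averaged 11.8 ± 0.8 CPM in the wild-type and 28.99 ± 10.4 CPM in the Grhl2-/- arches (log2 fold change 1.23 ± 0.21 SE, limma-voom FDR 0.00700). Itga2b and Pf4, more specific to the lineage, had log2 fold changes of 0.28 ± 0.14 SE and 0.36 ± 0.21 SE (limma-voom FDR values of 0.225 and 0.279). The summed level of the list was 22.9 to 31.8 CPM in wild-type arches and 38.7 to 63.3 CPM in Grhl2-/- arches, highest in Grhl2-/- 2-568 at 2.50 times the wild-type median. Without Vwf the sums overlapped, at 10.7 to 19.6 CPM in wild-type and 13.7 to 18.6 CPM in Grhl2-/- arches, with 16.3 CPM in Grhl2-/- 2-568, which was the highest arch for 2 of the 11 genes. Of 19 primitive erythroid genes tested, 0 were called and 2 had positive fold changes, with a median log2 fold change of -0.35. The embryonic globin genes Hbb-y, Hba-x and Hbb-bh1 had log2 fold changes of -0.35, -0.35 and -0.33 (limma-voom FDR values of 0.114, 0.140 and 0.131). Grhl2-/- 2-568 was the highest arch for 0 of 19 erythroid genes.

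The tissue around the macrophages differed between the genotypes. Of 16 surface epithelium genes tested, 9 were called lower and 0 higher, Grhl2 included, and their summed level was 435 to 570 CPM in wild-type arches and 224 to 338 CPM in Grhl2-/- arches. Of 16 first arch ectomesenchyme genes, 3 were called lower (Lhx6, Lhx8 and Msx1) and 0 higher, with sums of 1704 to 2136 CPM in wild-type arches and 1324 to 1537 CPM in Grhl2-/- arches. Sensory neuron genes varied widely in both genotypes, from 200 to 1384 CPM in wild-type arches and 525 to 1741 CPM in Grhl2-/- arches, and 0 of 20 were called. In Grhl2-/- 2-568 their sum was 599 CPM, below the wild-type median of 861 CPM. The part of these differences in make-up in the levels of the macrophage genes was not tested.

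**Figure D5:**
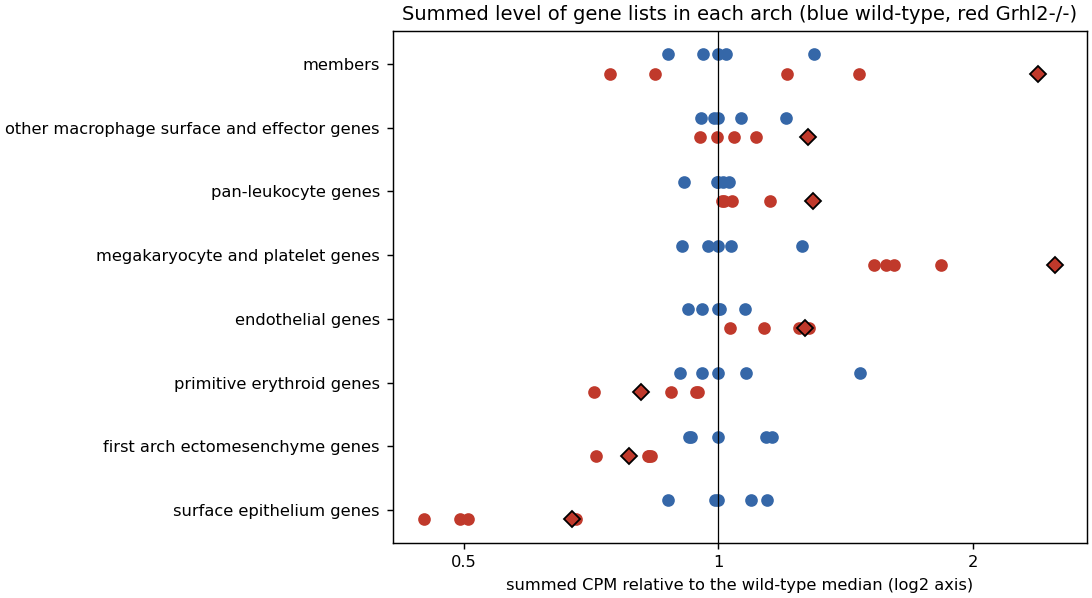
Summed CPM of gene lists in each arch relative to the wild-type median, on a log2 axis (blue wild-type, red Grhl2-/-, outlined diamond Grhl2-/- 2-568). For the 10 macrophage genes ("members") Grhl2-/- 2-568 is at 2.39 and the other Grhl2-/- arches from 0.744 to 1.47, whereas for the epithelial and ectomesenchyme lists all 5 Grhl2-/- arches lie below the wild-type arches.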

How the data were processed

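RNA of 10 PA1 libraries was measured by 50 bp single-end sequencing over 3 HiSeq lanes. The authors aligned reads to GRCm38 with STAR and deposited featureCounts counts per protein-coding gene, with no normalization. Versions of these 2 tools and the annotation release are not given in the sources used here. A second deposited table holds the authors' own comparison (log2 fold changes, average expression, adjusted p-values) and was not used. There were 0 unused columns of samples.

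A gene entered the test when 1 or more arches held 10 or more counts. Library sizes were scaled by TMM, the trimmed mean of M-values, before testing with limma 3.58.1 (voom, genotype as the only term) and edgeR 4.0.16 in R 4.3.3, called at FDR below 0.01, as the study's methods set it. The prior count of voom was 0.5. CPM values use TMM library sizes. All genes were fitted together and p-values adjusted over all of them. Each library is 1 embryo. Chi-square values per gene between libraries of 1 genotype were 7.29 to 26.4, so none was a repeat of another. The scripts were tested on simulated data.

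The results were recomputed with DESeq2 1.42.0, with the quasi-likelihood test of edgeR, with other normalizations and filters, sample weights, a block for the label number and leaving out each arch. The genes named in each list were those called, the 3 with the largest mean CPM and partners of the macrophage genes. The macrophage genes and the lists were chosen with earlier results on these data known. A list is described by its counts, with no test. A gene named for being at or near 0 reads was chosen after its counts were seen. Exon lengths and coordinates are from GENCODE M21. Some genes that the naming rule would include are not reported here.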

Additional observations from a re-analysis of the deposited data

Results flagged for a closer look

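In 26 groups of 5 arches examined (each macrophage gene, their sum, the Mrc1 to Csf1r ratio and total counts in each genotype), the gap of the most extreme arch to its neighbour was compared with the range of the group. In 3 it exceeded the 95% critical value of Dixon, 0.71, where chance would give 1.3. For C1qb in wild-type arches the gap was 0.754 of the range, with wild-type 1-566 at 4.09 CPM and the others from 2.72 to 3.06 CPM. For Cx3cr1 in wild-type arches it was 0.737, with the same arch at 9.72 CPM and the others from 6.34 to 7.23 CPM. For Aif1 in Grhl2-/- arches it was 0.734, with Grhl2-/- 2-568 at 0.996 CPM and the others from 0.270 to 0.464 CPM.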

How the results depend on the processing

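No macrophage gene passed FDR 0.01 under any of the 18 refits (0 of 180 fold changes, limma-voom, edgeR or DESeq2), and 168 of 180 kept their direction. At FDR below 0.05 the fit with all arches called 0 of 10. With sample weights Csf1r changed sign to -0.0057. Leaving out each arch in turn moved the log2 fold change from -0.18 to 0.26 for Csf1r, -0.047 to 0.31 for Ptprc, -0.11 to 0.22 for Fcer1g, -0.10 to 0.37 for C1qc and -0.42 to 0.061 for Aif1, while Mrc1 stayed between 0.52 and 1.06. The sign changed without Grhl2-/- 2-568 for Csf1r, Ptprc, Fcer1g and C1qc, without Grhl2-/- 2-566 or wild-type 1-568 for Csf1r, without wild-type 3-588 for Fcer1g, and without Grhl2-/- 3-604 or wild-type 1-566 for Aif1. For all genes tested, 128 were called higher and 158 lower, 520 and 553 by DESeq2, 559 and 564 at FDR below 0.05, and 204 higher with sample weights. Leaving out each arch gave 42 to 143 higher and 110 to 249 lower. The cause was not tested.

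The second label number was used as a block in 1 fit. The numbers were not taken to pair the arches, since the labels do not say what they mark. Same-number arches of different genotype had correlations of their deviations from -0.24 to 0.42 (5 pairs, mean 0.105). The mean over the 20 pairs with other numbers was -0.025. Of 8 arches with a same-number arch of the other genotype, 4 were closest to their own number. Whether the numbers pair the arches was not tested. Under the block 60 genes were called higher and 69 lower. Tyrobp and Aif1 changed sign to 0.19 and 0.25, so that 10 of 10 macrophage genes were positive, against 52.3% of all genes tested. Of the 10, 7 had an unadjusted p below 0.05 and 0 were called. The share of all genes with such a p in this fit is not given here. Mrc1 was then at 1.49 (limma-voom FDR 0.0209), C1qa at 0.999 (FDR 0.0802) and C1qb at 0.86 (FDR 0.0746), the lowest FDR of each over the alternatives, whose highest were 0.320, 0.842 and 0.803. The 2 Grhl2-/- arches whose number has no wild-type arch carry no weight on genotype in that fit.

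Aif1 had the fewest reads of the 10 genes, 7 to 28 per arch.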

Other observations

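The label numbers of 3 Grhl2-/- arches are also those of wild-type arches, and their values can be set side by side. Under number 568, Grhl2-/- 2-568 lay above the mean of 2 wild-type arches for 10 of 10 macrophage genes, by a median of 2.02 times and by 4.63 times for Mrc1. Under number 588, 1 Grhl2-/- arch lay above 1 wild-type arch for 10 of 10, by a median of 1.13 times and by 2.30 times for Mrc1. Under number 566, 1 Grhl2-/- arch lay above the mean of 2 wild-type arches for 7 of 10, by a median of 1.17 times and by 1.90 times for Mrc1. Fcer1g, Tyrobp and Aif1 were the 3 exceptions, at 0.878, 0.872 and 0.566 times. Grhl2-/- 2-568 was the highest of the 10 arches for all 10 genes, so its count of 10 of 10 follows from that. The 10 genes varied together, and the shares over all genes are not given for these comparisons. With 1 Grhl2-/- arch for each number these values carry no test.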
